A study of Mus musculus with 16 samples.

Results

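The fibroblast growth factor (FGF) genes were followed in GABAergic cells of the newborn mouse brain: the ligands Fgf1 to Fgf23, the receptors Fgfr1 to Fgfr4 and Fgfrl1, the Sprouty and Spred inhibitors, the phosphatases Dusp4 and Dusp6, and the ETS factors Etv4 and Etv5. Members were taken by gene name from the non-control probes of the array, and the probe with the highest mean signal over both channels and all 16 arrays stood for each gene. This gave 36 members of 29273 genes on the array. All 36 passed the filter on dim genes, which 27841 genes passed in all. Spry3 and Spred3 were sought by name and are not analysed here.

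GABAergic cells were taken at postnatal day 1 from GAD67-eGFP mice, in which the green fluorescent protein marks cells that express the GABA-synthesising enzyme GAD67, on a C57Bl/6 background, and were sorted by fluorescence. One group came from the whole brain of 4 mice (4 arrays); for the other groups the olfactory bulb, cortex, striatum and cerebellum of 6 mice were dissected (3 arrays each), and the labels do not say whether arrays of different regions share animals. Complementary DNA of each sorted sample, amplified by a global polymerase chain reaction, was labelled with Cy5 and hybridised with a Cy3-labelled common reference, which was RNA of the undissected whole brain of 4 mice of the same age, amplified likewise. No array had the dyes swapped, so a dye effect of a probe is part of its ratio to the reference and drops out of differences between groups. The sorted cells are those with reporter fluorescence, and the reference also holds GABAergic cells.

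FGF ligands are secreted proteins that bind receptor tyrosine kinases together with heparan sulfate, and the activated receptors signal through FRS2 and Ras to the MAP kinases ERK1 and ERK2. Sprouty and Spred proteins, DUSP6 and DUSP4 damp this cascade and are themselves induced by it, while ETV4 and ETV5 are transcription factors that FGF signalling switches on. In the developing brain the pathway is known for patterning the telencephalon and the midbrain-hindbrain border, for growth of the olfactory bulb and for proliferation of progenitors. Fgf11 to Fgf14 encode a separate branch that stays inside the cell and binds voltage-gated sodium channels.

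Values are log2 ratios of sorted cells to reference, so 0 is the level of the reference and 1 is a doubling. The median signal of an array was 150.9 to 717.5 units for the sorted cells and 92.0 to 254.0 for the reference, and 78.1% to 96.6% of spots in the sorted-cell channel were well above background. Arrays of a group correlated at 0.936 to 0.992, arrays of different regions at 0.776 to 0.927, and whole-brain arrays with regional arrays at 0.618 to 0.748 over all genes tested. The whole-brain arrays were scanned on one day and the 12 regional arrays on another, per the file headers, so group and scan day cannot be told apart for whole brain. Of 7 GABAergic markers, 7 were higher than the reference in olfactory bulb, cortex and striatum and 6 in whole brain and cerebellum, while Gad1, the gene of GAD67, was lower than the reference in whole brain (log2 ratio -1.51, limma adjusted p = 1.04e-12) where Gad2 was higher (1.38). Of 8 astrocyte and radial glia markers, 7 were lower than the reference in each group, and of 6 progenitor markers 3 to 5 were higher. Of 5 genes of the cerebellar granule cell lineage, 4 were higher than the reference in cerebellum, where their summed sorted-cell signal ran from 12042.5 to 15126.8 units against 1717 to 5142 units in the other groups; the part of these cells in the cerebellar values below was not tested. Marker lists also moved between regions. In striatum, 5 of 8 astrocyte and radial glia, 4 of 6 microglial, 4 of 6 oligodendrocyte lineage, 2 of 4 endothelial and 2 of 6 meningeal and choroid plexus markers were higher than in the other regions, with Ttr, a choroid plexus gene, higher by 3.42 and Cldn5, an endothelial gene, by 1.38. In cortex 6 of 8 astrocyte and radial glia markers were lower. Of the 7 GABAergic markers, 4 were higher in olfactory bulb, 5 higher and 1 lower in cortex, and 3 higher in striatum. In cerebellum 5 were lower, namely Gad2, Dlx1, Dlx2, Dlx5 and Dlx6. There Slc32a1 was higher by 0.91 and Gad1 did not differ by test (-0.0020). The part of these cells in the regional values was not tested. In such mixed samples a change in the share of a cell type cannot be told apart from a change within its cells.

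Across the 4 regions, 24 of 36 members differed (66.7%; limma moderated F test, Benjamini-Hochberg adjusted p under 0.05 over all genes), beside 57.4% of all genes tested. These calls and the order of regions are those of 1 probe per gene: of 20 members with over 1 probe tested, 12 had all probes on the same side of the threshold and 6 had all probes highest in the same region. The median spread between the highest and lowest region mean was 0.46 for the members and 0.38 for all genes on the log2 scale. Dusp4, Fgfr2 and Etv5 had a spread of at least 1 (2.76, 2.62 and 1.01), which 3.79% of all genes reached with an adjusted p under the threshold. Fgf18 came next at 0.996, followed by Fgf12 at 0.92 and Spry1 at 0.91. Of 216 combinations of a member and a pair of regions, 71 differed, beside 27.8% of such combinations over all genes.

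**Figure D1:**
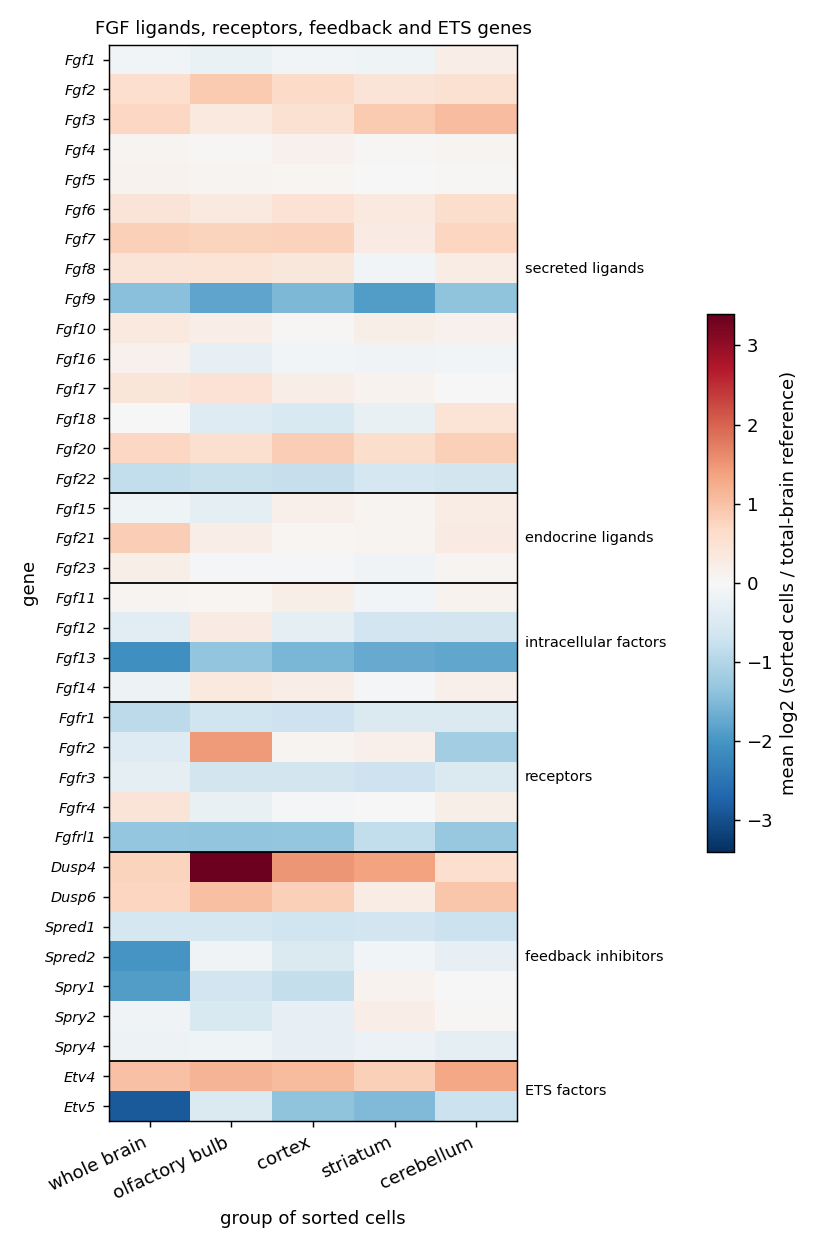
Mean log2 ratio of sorted cells to the total-brain reference for each of the 36 genes (rows, by role) in the 5 groups (columns); red is above and blue below the reference. Dusp4 in olfactory bulb is the highest mean (3.33) and Etv5 in whole brain the lowest (-2.85).

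**Figure D2:**
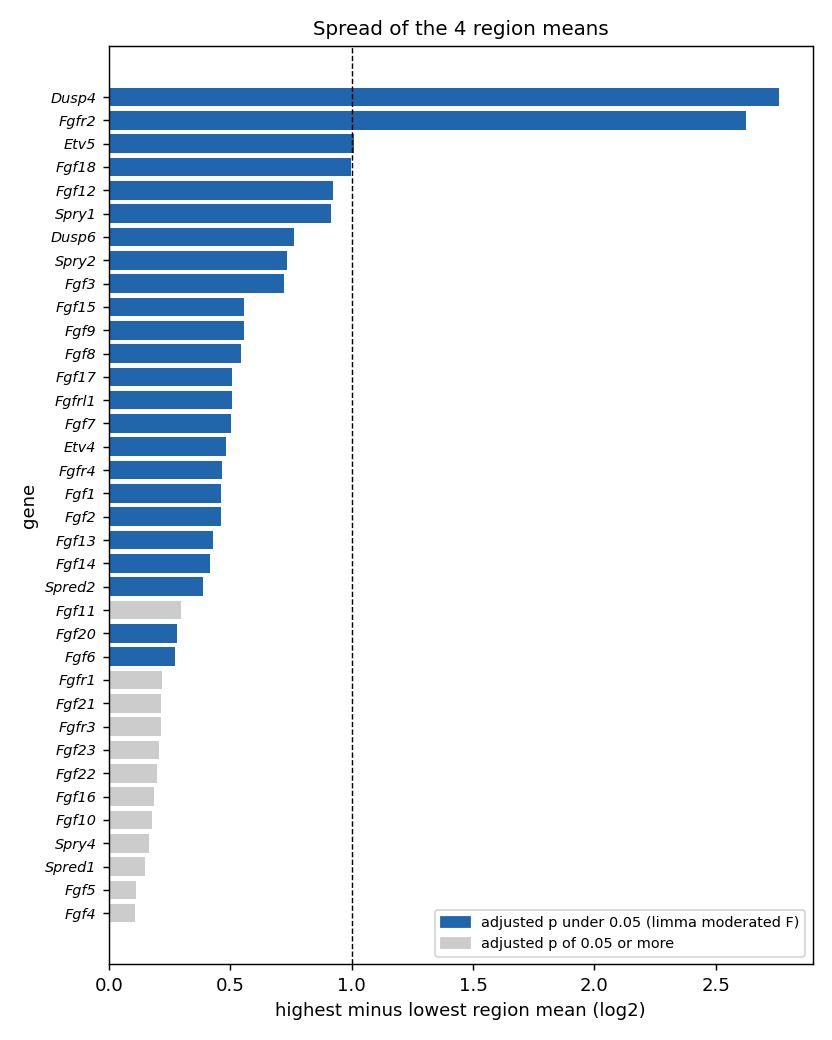
Highest minus lowest region mean for each gene on the log2 scale, with genes past the threshold of limma's moderated F test in blue; the dashed line marks 1. Dusp4 and Fgfr2 stand at 2.76 and 2.62, and the other 34 genes lie at or below 1.01.

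The bases before the transcription start are shown for Fgfr2 and Etv5. These are the members with a spread of at least 1 that the RefSeq table of starts holds. Dusp6 is shown as a feedback gene chosen because its run holds CGGAAG, a form of the ETS-family site. Each run is the 250 bases before a start (RefSeq, build GRCm38.p6), 5′ to 3′ on the gene's strand, with the letters CGGAAG, or their reverse complement CTTCCG, in capitals.
Fgfr2, chr7:130266809-130267058, minus strand: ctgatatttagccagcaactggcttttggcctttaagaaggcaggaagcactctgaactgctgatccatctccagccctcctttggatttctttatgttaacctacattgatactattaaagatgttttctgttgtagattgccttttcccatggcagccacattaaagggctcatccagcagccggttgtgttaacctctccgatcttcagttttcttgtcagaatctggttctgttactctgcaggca
Etv5, first start, chr16:22438369-22438618, minus strand: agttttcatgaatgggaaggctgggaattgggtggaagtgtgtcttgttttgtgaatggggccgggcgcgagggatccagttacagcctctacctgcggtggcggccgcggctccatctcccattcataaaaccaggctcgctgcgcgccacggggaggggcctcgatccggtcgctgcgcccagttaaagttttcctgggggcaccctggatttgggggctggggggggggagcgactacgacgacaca
Etv5, second start, chr16:22439571-22439820, minus strand: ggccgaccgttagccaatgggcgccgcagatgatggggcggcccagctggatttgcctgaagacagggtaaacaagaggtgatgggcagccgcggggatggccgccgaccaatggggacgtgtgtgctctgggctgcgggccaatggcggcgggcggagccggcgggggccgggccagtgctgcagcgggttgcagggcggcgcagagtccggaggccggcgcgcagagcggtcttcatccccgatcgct
Dusp6, chr10:99262981-99263230, plus strand: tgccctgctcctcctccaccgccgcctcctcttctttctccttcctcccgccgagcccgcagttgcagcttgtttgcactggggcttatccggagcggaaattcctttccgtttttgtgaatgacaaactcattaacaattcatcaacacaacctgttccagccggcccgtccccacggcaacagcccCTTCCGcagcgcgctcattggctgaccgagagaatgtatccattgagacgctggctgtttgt
The letters were searched on both strands. They occur once in the Dusp6 run and in neither the Fgfr2 run nor the Etv5 runs. Other or shorter forms of an ETS-family site were not searched, so a run without these letters may still hold such a form. The table held starts for 26 of the 36 members, with 34 runs in all. Of these, 7 (20.6%) held the letters, in Dusp6, Fgf12, Fgf23, Fgfrl1, Spred1 and Spred2, beside 13.6% of all 32851 runs of this length. The median GC content was 62.4% over the member runs and 52.4% over all runs, and the Fgfr2 run had 44% with 2 CpG dinucleotides. A match describes the letters and does not show a site in use.

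Among the 15 secreted ligands that act near their source, 10 differed between regions (66.7%, beside 57.4% of all genes), with spreads of at most 0.996. Fgf18, a ligand of FGFR2 and FGFR3, was highest in cerebellum. Its log2 ratios there were 0.44, 0.70 and 0.26, against -0.46, -0.70 and -0.42 in cortex, -0.46, -0.26 and -0.02 in striatum, and -0.37 and -0.50 in olfactory bulb, where the spot of the other array was left out as an outlier. The cerebellar arrays did not overlap with those of any other region, and cerebellum exceeded the other regions by 0.87 ± 0.12 (SE; adjusted p = 3.67e-05), a 1.83-fold difference; a fit of the authors' deposited log ratios gave 1.38. In whole brain, with 1 of 4 arrays left out, the mean was -0.012 ± 0.29 (SD, n = 3).

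Fgf3, an otic and hindbrain ligand in the embryo, was also highest in cerebellum (1.06 ± 0.11, SD, n = 3) and lowest in olfactory bulb (0.34 ± 0.0080, n = 3). It was above the other regions in cerebellum by 0.48 ± 0.11 (SE; adjusted p = 0.00209) and below them in olfactory bulb by 0.48 ± 0.11 (adjusted p = 0.00318). Fgf7, known as keratinocyte growth factor, was lower in striatum (0.27 ± 0.058, SD, n = 3) than in the other regions, whose means were 0.74 to 0.78 (difference -0.49 ± 0.08, SE; adjusted p = 0.000266). Over the alternatives, the cerebellar difference of Fgf3 was 0.31 with scaling between arrays, and in the sorted-cell channel alone the bulb difference of Fgf3 was -0.75 and the striatal difference of Fgf7 -0.74, each still called. Fgf17, a relative of Fgf8 in brain patterning, was higher in olfactory bulb by 0.38 ± 0.09 (SE; adjusted p = 0.00275). Fgf8 itself was lower in striatum by 0.45 ± 0.10 (adjusted p = 0.00244), which median centring in place of loess reduced to 0.11 (adjusted p = 0.505); in the sorted-cell channel alone the difference was -0.72 (adjusted p = 0.0533).

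Against the reference, Fgf2, Fgf3, Fgf6, Fgf7 and Fgf20 were higher in all 4 regions; with Dusp4, Dusp6 and Etv4 they made 8 members of this kind, beside 24.7% of all genes. Fgf2, the basic FGF of neural progenitor culture, ranged from 0.43 to 0.89 over the region means, and Fgf20 from 0.54 to 0.82. The third Fgf2 probe read -0.37 to -0.14 over the regions and the second Fgf6 probe -0.20 to 0.080. Both were dim, well above background on 3 of 16 sorted-cell arrays each. Fgf9, a ligand that neurons are known to make, had log2 ratios of -1.64, -1.98 and -1.76 in olfactory bulb, -1.40, -1.42 and -1.74 in cortex, -2.01, -1.79 and -1.94 in striatum, -1.25, -1.36 and -1.46 in cerebellum, and -1.19, -1.55, -1.5 and -1.44 in whole brain. All 16 arrays were below the reference, and the group means corresponded to 0.266 to 0.390 of the reference level, with adjusted p of at most 1.51e-11 in each group. Cerebellum exceeded the other regions by 0.39 ± 0.10 (SE; adjusted p = 0.00355), or by 1.07 in a fit of the authors' deposited log ratios, which carry no offset. Fgf22, a ligand of synapse formation, ranged from -0.78 to -0.59 over the region means. Its second probe read 0.067 to 0.26 in the regions, above the reference, so its direction rests on the probe.

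The group means of Fgf1, Fgf4, Fgf5, Fgf10 and Fgf16 lay between -0.27 and 0.34. Of these, Fgf1 differed between regions and was higher in cerebellum by 0.39 ± 0.09 (SE; adjusted p = 0.00141); averaging its probes reduced this to 0.11 (adjusted p = 0.41), and the authors' deposited log ratios gave 0.67. The second Fgf1 probe was instead highest in cortex (0.46) and read -0.079 in cerebellum. Fgf5 was well above background on 7 of 16 arrays in the sorted-cell channel and on no cortical array.

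Of the 3 endocrine ligands, Fgf15 differed between regions and Fgf21 and Fgf23 did not pass the test (adjusted p = 0.64 and 0.228). Fgf15, the mouse counterpart of human FGF19, which gut and embryonic brain express, was lower in olfactory bulb (-0.30 ± 0.043, SD, n = 3) than in the other regions, whose means were 0.10 to 0.26 (difference -0.48 ± 0.10, SE; adjusted p = 0.00176). In the sorted-cell channel alone that difference was -0.26 (adjusted p = 0.0899). Fgf21, a fasting hormone of liver, was higher in whole brain than in the regions by 0.67 ± 0.13 (SE; adjusted p = 0.00017), or by 0.30 over the mean of its probes.

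Among the 4 intracellular factors, Fgf12 and Fgf13 varied most by region or against the reference. The brightest Fgf12 probe read 0.30, 0.31 and 0.21 in olfactory bulb, -0.42, -0.39 and -0.20 in cortex, -0.71, -0.57 and -0.69 in striatum, and -0.66, -0.61 and -0.63 in cerebellum. Olfactory bulb was the highest region and the only one above the reference by this probe, with no overlap with the other arrays. It exceeded the other regions by 0.81 ± 0.07 (SE; adjusted p = 5.62e-08), or 1.76-fold. The second Fgf12 probe showed the same region on top with a wider gap: its means were 0.12 ± 0.030 (SD) in olfactory bulb, -1.73 ± 0.22 in striatum, -1.58 ± 0.13 in cortex and -2.43 ± 0.12 in cerebellum (n = 3 each), a difference of 2.03 ± 0.09 (SE; adjusted p = 6.56e-12 over all probes). The third probe read 0.38 to 0.89 in all groups and gave 0.11 ± 0.09 for olfactory bulb (adjusted p = 0.421). Which transcripts each probe reads was not examined.

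Fgf13, which binds sodium channels and microtubules, was below the reference on all 16 arrays. Its log2 ratios were -1.31, -1.39 and -1.34 in olfactory bulb, -1.60, -1.51 and -1.53 in cortex, -1.67, -1.62 and -1.87 in striatum, -1.75, -1.69 and -1.89 in cerebellum, and -1.77, -2.46, -2.22 and -1.87 in whole brain. The group means were 0.236 to 0.393 of the reference, with adjusted p of at most 1.17e-10, and its other 2 probes lay between -1.25 and -2.68 in the group means. The regions differed little: olfactory bulb was above the other regions by 0.33 ± 0.11 (SE; adjusted p = 0.026), a call that was lost when any 1 of the 3 olfactory bulb arrays was left out (0.32 to 0.36, adjusted p = 0.0603 to 0.0953) and by both other probes. Fgf14 was higher than the reference in olfactory bulb and cortex (0.34 and 0.24), and its second probe read 0.88 to 1.59 and the third probe -0.71 to -0.13 in the group means, so its direction rests on the probe. Without olfactory bulb replicate 3 the bulb value of Fgf14 was 0.20 (adjusted p = 0.0616). The brightest Fgf11 probe did not pass the F test (adjusted p = 0.0737), whereas the second passed with a spread of 1.09 (adjusted p = 3.95e-06 over all probes) and was lowest in olfactory bulb (-1.16).

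Of the 5 receptor genes, Fgfr2 differed most between regions. Its brightest probe read 1.48, 1.42 and 1.42 in olfactory bulb, 0.03, 0.21 and 0.03 in cortex, 0.20, 0.06 and 0.27 in striatum, and -1.18, -1.23 and -1.15 in cerebellum. The olfactory bulb arrays lay above, and the cerebellar arrays below, those of cortex and striatum, and cortex and striatum overlapped (adjusted p = 0.535). Olfactory bulb stood at 2.71-fold and cerebellum at 0.440-fold of the reference. Olfactory bulb exceeded the other regions by 1.74 ± 0.07 (SE; adjusted p = 3.54e-12), or 3.35-fold, and cerebellum fell below them by 1.75 ± 0.07 (adjusted p = 5.36e-13), or 3.37-fold. In the sorted-cell channel taken alone the bulb difference was 1.82, and in the reference channel 0.075 (adjusted p = 0.653).

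A second Fgfr2 probe kept olfactory bulb on top of the regions (0.95 ± 0.051, SD, n = 3) with cortex, striatum and cerebellum at -0.07, -0.05 and -0.20. It gave 1.05 ± 0.09 for olfactory bulb (SE; adjusted p = 1.5e-07) and -0.47 ± 0.09 for cerebellum (adjusted p = 0.000525). The third and dimmest probe read 0.088 to 0.38 and did not pass for either region (adjusted p = 0.0811 and 0.114). In whole brain the probes disagreed in sign: the brightest read -0.44 ± 0.08 and the second 1.73 ± 0.19 (SD, n = 4), so no direction is given there.

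**Figure D3:**
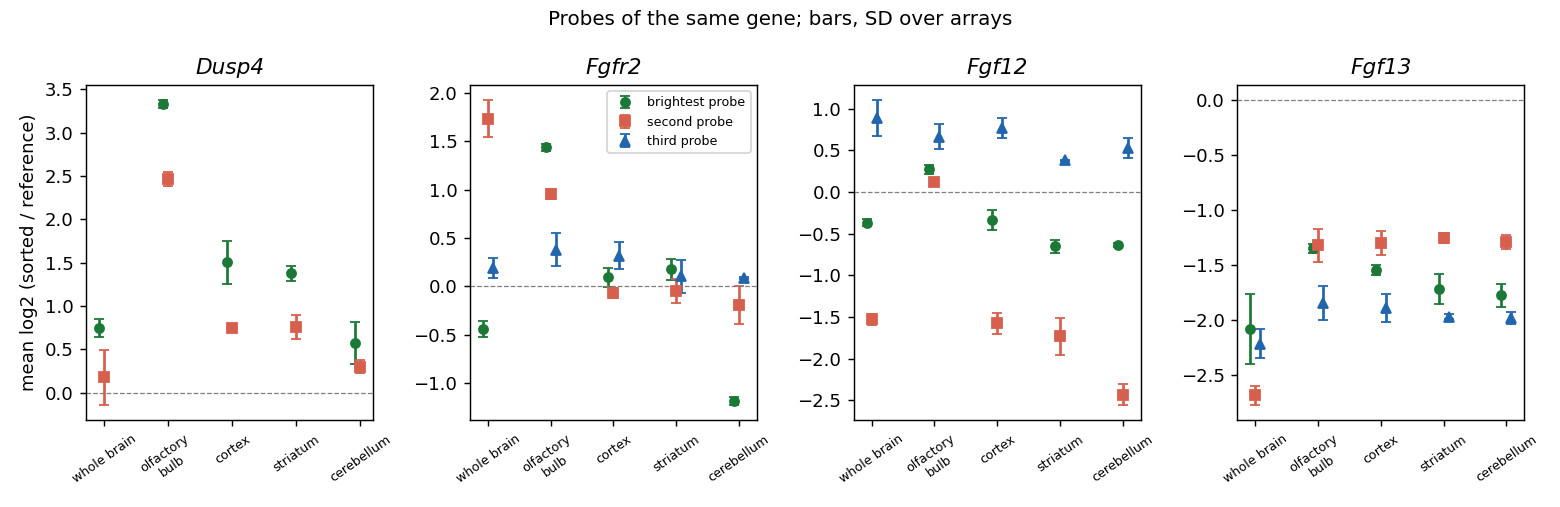
Mean log2 ratio and SD over arrays for each probe of Dusp4, Fgfr2, Fgf12 and Fgf13 in the 5 groups. Both Dusp4 probes are highest in olfactory bulb, the brightest and second Fgfr2 probes differ by sign in whole brain (-0.44 and 1.73), and the third Fgf12 probe lies above 0 in every group.

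The remaining receptors were nearer to each other across regions. Fgfrl1, a receptor without a kinase domain, was below the reference in every region (-1.33 to -0.83), and striatum stood above the other regions by 0.48 ± 0.12 (SE; adjusted p = 0.00524), or by 1.08 in a fit of the authors' deposited log ratios. Without striatum replicate 3 that difference was 0.32 (adjusted p = 0.0734). Fgfr1 and Fgfr3 were below the reference in all 4 regions, at -0.70 to -0.48 and -0.71 to -0.50, and their brightest probes did not pass the F test (adjusted p = 0.147 and 0.213). The second Fgfr3 probe passed with a spread of 0.50, highest in striatum (adjusted p = 0.00103 over all probes), and the fourth Fgfr1 probe with 0.47, highest in cortex (adjusted p = 0.00222). The third Fgfr3 probe read 0.12 to 0.25 in the regions, and in whole brain 2 of 4 Fgfr1 probes read 0.97 and 0.99 where the brightest read -0.89. Fgfr4 ranged from -0.26 in olfactory bulb to 0.21 in cerebellum, a difference of -0.47 ± 0.11 (SE; adjusted p = 0.00169) that median centring reduced to -0.074 (adjusted p = 0.672).

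Among the 7 feedback inhibitors, 5 differed between regions (71.4%, beside 57.4% of all genes): Dusp4, Dusp6, Spry1, Spry2 and Spred2. Dusp4, a nuclear phosphatase of MAP kinases, read 3.33, 3.38 and 3.29 in olfactory bulb, 1.37, 1.79 and 1.35 in cortex, 1.46, 1.37 and 1.30 in striatum, 0.45, 0.85 and 0.41 in cerebellum, and 0.62, 0.83, 0.83 and 0.71 in whole brain. By this brightest probe every array was above the reference and the bulb arrays lay above all others. The cerebellar arrays lay below those of the other regions, while cortex and striatum overlapped (adjusted p = 0.511). The olfactory bulb mean was 10.1-fold of the reference. Olfactory bulb exceeded the other regions by 2.18 ± 0.10 (SE; adjusted p = 1.74e-11), or 4.54-fold, and cerebellum fell below them by 1.5 ± 0.10 (adjusted p = 1.3e-09), or 2.83-fold. A second Dusp4 probe gave 1.86 ± 0.11 for olfactory bulb (adjusted p = 4.12e-10) and -1.02 ± 0.11 for cerebellum (adjusted p = 6.84e-07). Against the reference this second probe read 2.47 in olfactory bulb and 0.18 in whole brain (adjusted p = 0.0516), with -0.12 on whole-brain replicate 1. For the brightest probe the bulb difference in the reference channel was 0.024 (adjusted p = 0.878). Differences of at least 1 between olfactory bulb and the other regions were called for 0.6% of all genes, and Dusp4 and Fgfr2 were the members among them.

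Spry1 and Spry2, inhibitors upstream of Ras, had another order, with striatum and cerebellum above olfactory bulb and cortex. Spry1 read 0.11 ± 0.054 (SD) in striatum, 0.0052 ± 0.14 in cerebellum, -0.80 ± 0.07 in cortex and -0.65 ± 0.10 in olfactory bulb (n = 3 each). Arrays of the upper pair of regions did not overlap with those of the lower pair, and the neighbours within each pair did not differ by test (adjusted p = 0.446 and 0.32). Cortex fell below the other regions by 0.63 ± 0.08 (SE; adjusted p = 7.36e-05), and striatum exceeded them by 0.59 ± 0.08 (adjusted p = 4.69e-05). Olfactory bulb was below them by 0.42 ± 0.08 (adjusted p = 0.000922), which median centring reduced to 0.20 (adjusted p = 0.135) and the sorted-cell channel alone to 0.28 (adjusted p = 0.0526). Spry2 read 0.22 ± 0.073 in striatum, 0.044 ± 0.090 in cerebellum, -0.29 ± 0.11 in cortex and -0.52 ± 0.14 in olfactory bulb (SD, n = 3 each). Striatum exceeded the other regions by 0.47 ± 0.08 (SE; adjusted p = 0.000385) and olfactory bulb fell below them by 0.51 ± 0.08 (adjusted p = 0.000166); the authors' deposited log ratios gave 0.75 and -0.82. The summed sorted-cell signal of astrocyte and radial glia markers was 8258 to 9434 units in striatum and 8198 to 8784 in cerebellum. It was 7384 to 7695 units in olfactory bulb and 4818 to 5518.5 in cortex. This sum was lowest in cortex, as was Spry1, whereas Spry2 was lowest in olfactory bulb. The part of these cells in the result was not tested. The second, dimmer Spry2 probe also had olfactory bulb lowest (0.37) but cerebellum highest (0.95).

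Dusp6, a cytoplasmic phosphatase specific for ERK and a common readout of FGF signalling, was lowest in striatum. Its log2 ratios were 0.12, 0.22 and 0.44 there, against 1.08, 0.92 and 1.06 in olfactory bulb, 0.97, 0.67 and 0.77 in cortex and 1.04, 0.68 and 1.09 in cerebellum. The striatal arrays did not overlap with the others, and striatum fell below the other regions by 0.66 ± 0.11 (SE; adjusted p = 0.000156). In the sorted-cell channel alone the difference was -0.42 (adjusted p = 0.0941). Dusp6 and the Sprouty genes thus had opposite signs in striatum, where Spry1 and Spry2 were higher and Dusp6 lower than in the other regions. By its brightest probe Spred2 passed the F test with a spread of 0.39 (adjusted p = 0.0455) and was highest in striatum, and by its second with a spread of 0.78 (adjusted p = 3.54e-06 over all probes) and was highest in olfactory bulb. The brightest Spred1 probe did not pass (adjusted p = 0.43), but the other 2 did, with spreads of 0.54 and 0.52 (adjusted p = 0.00027 and 0.027), and all 3 were highest in olfactory bulb. Spry4 did not pass (adjusted p = 0.6) and was not well above background on any sorted-cell array of olfactory bulb, cortex or striatum.

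**Figure D4:**
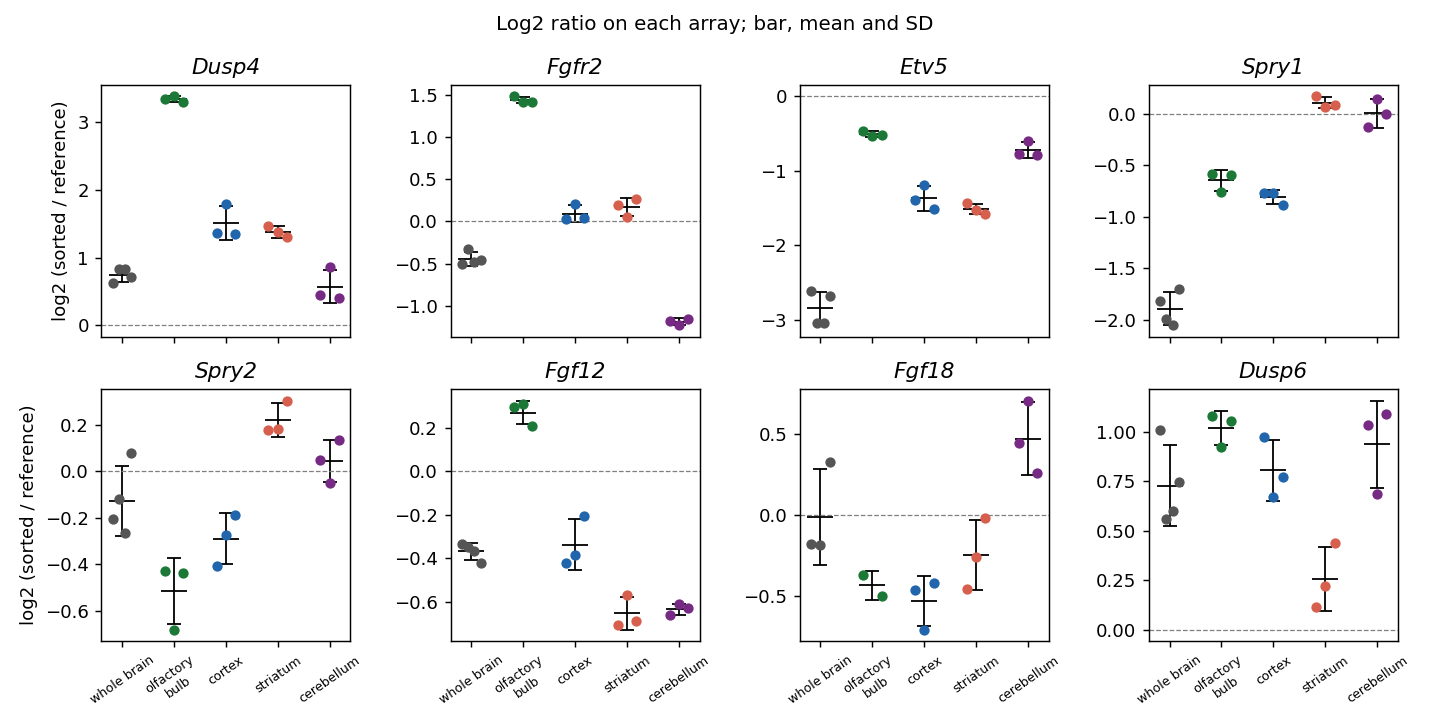
Log2 ratio of sorted cells to reference on each array for 8 genes, by group (whole brain 4 arrays, regions 3 each; fewer for Fgf18, where outlier spots were left out), with mean and SD; each panel has its own scale. Olfactory bulb lies above the other groups for Dusp4, Fgfr2, Etv5 and Fgf12, cerebellum above the other regions for Fgf18, and striatum below the other groups for Dusp6.

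Both ETS factors differed between regions, on opposite sides of the reference. Etv5 read -0.46, -0.53 and -0.52 in olfactory bulb, -0.77, -0.60 and -0.79 in cerebellum, -1.39, -1.19 and -1.52 in cortex, -1.44, -1.52 and -1.58 in striatum, and -2.62, -3.05, -3.04 and -2.69 in whole brain. By this brightest probe all arrays were below the reference, although with median centring the bulb mean was -0.016 (adjusted p = 0.881). Olfactory bulb and cerebellum lay above cortex and striatum, and neighbours within each pair did not differ by test (adjusted p = 0.148 and 0.408). Olfactory bulb exceeded the other regions by 0.70 ± 0.10 (SE; adjusted p = 2.56e-05), and striatum fell below them by 0.65 ± 0.10 (adjusted p = 7.41e-05). The second, dim Etv5 probe gave 0.36 ± 0.11 for olfactory bulb (adjusted p = 0.0171) and -0.29 ± 0.11 for striatum (adjusted p = 0.0503). Against the reference this second probe read -0.025 in olfactory bulb (adjusted p = 0.831), with 0.16 on replicate 1, and was called lower in the other regions. By the brightest probe cerebellum was above the other regions by 0.41 (adjusted p = 0.00217) and cortex below by 0.45 (adjusted p = 0.00497), while the second probe read -0.13 and 0.064 with no call, the cerebellar call was lost with median centring (0.23, adjusted p = 0.0868) and the cortical call was lost without cortex replicate 3 (adjusted p = 0.0578). Etv4 was above the reference in every region, from 0.82 ± 0.052 (SD, n = 3) in striatum to 1.31 ± 0.053 in cerebellum. Cerebellum exceeded the other regions by 0.29 ± 0.08 (SE; adjusted p = 0.0064).

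By region, 15 members were called in olfactory bulb against the other regions (9 higher, 6 lower; 41.7%, beside 29.7% of all genes, 13.8% higher and 15.9% lower), 3 in cortex (0 higher, 3 lower; 8.33%, beside 10.5%, 4.46% higher and 6.02% lower), 13 in striatum (3 higher, 10 lower; 36.1%, beside 30%, 13.5% higher and 16.5% lower) and 15 in cerebellum (11 higher, 4 lower; 41.7%, beside 40.4%, 23.8% higher and 16.6% lower). The shares in cortex and cerebellum were thus near those of all genes. The median difference over the members was 0.029 in olfactory bulb, -0.10 in striatum, -0.0070 in cortex and 0.11 in cerebellum, beside -0.0088, -0.032, -0.0068 and 0.049 over all genes. Without olfactory bulb replicate 1 the bulb count was 9. The cortical count was 1 without cortex replicate 3 and 5 without whole-brain replicate 1. These comparisons share arrays with each other. Differences that were called and at least 1 in size numbered 2 of 36 members in olfactory bulb and 2 in cerebellum (Dusp4 and Fgfr2 in each) and 0 in cortex and striatum, beside 0.6%, 1.17%, 0.154% and 0.338% of all genes in the same order.

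Against the reference, 28 members were called in olfactory bulb (13 higher, 15 lower; 77.8%, beside 67.9% of all genes, 36.7% higher and 31.2% lower), 26 in cortex (12 and 14; 72.2%, beside 69.4%, 37.9% and 31.5%), 21 in striatum (10 and 11; 58.3%, beside 67.5%, 36.1% and 31.4%), 25 in cerebellum (13 and 12; 69.4%, beside 75.9%, 42.7% and 33.2%) and 29 in whole brain (15 and 14; 80.6%, beside 79.6%, 44.9% and 34.7%). These comparisons share the reference, and the members' shares lay on both sides of those of all genes. Etv5, Fgf9, Fgf13, Fgf22, Fgfr1, Fgfr3, Fgfrl1 and Spred1 were lower than the reference in all 4 regions, 8 members beside 21.2% of all genes. Among these the other 2 Spred1 probes read 0.33 and 0.27 in olfactory bulb, above the reference. The second Etv5 probe read -0.025 there and was not called (adjusted p = 0.831).

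Whole-brain cells differed from the mean of the 4 regions for 15 members (7 higher, 8 lower; 41.7%, beside 61.8% of all genes, 31.1% higher and 30.6% lower). The largest differences were lower values of Etv5 (-1.82 ± 0.08, SE; adjusted p = 1.84e-13), Spred2 (-1.75 ± 0.09; adjusted p = 1.27e-12) and Spry1 (-1.56 ± 0.07; adjusted p = 2.44e-13). The whole-brain mean of Spry1 was -1.89 ± 0.16 and that of Spred2 -2.00 ± 0.29 (SD, n = 4), below every regional array of the same gene. The second Spred2 probe read -0.043 in whole brain, so the Spred2 difference rests on 1 probe. Dusp4 was lower in whole brain by 0.95 ± 0.09 (SE; adjusted p = 9.74e-09). With the probe brightest in the sorted-cell channel the Spred2 difference was -0.085 (adjusted p = 0.248), and for Etv5 scaling between arrays gave -1.20 and the second probe -0.46 (adjusted p = 0.00028). Whole brain also holds regions that were not dissected, and its arrays were scanned apart from the others.

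The other genes of the pathway, on lists chosen by role, were read against the 57.4% of all genes that differed between regions. Of 6 co-receptors and modulators tested, 5 differed between regions (83.3%), led by Flrt3, a membrane partner of FGF receptors, which was 1.59 in striatum, 1.05 in cortex, 0.55 in olfactory bulb and -0.072 in cerebellum (adjusted p = 9.78e-10, F test). Of 19 heparan sulfate genes, 11 differed (57.9%, near the share of all genes). Sulf1, which removes sulfate groups from heparan sulfate, was 0.28 in striatum and -1.86 to -1.77 in the other 3 regions. Striatum exceeded the other regions in Sulf1 by 2.10 ± 0.16 (SE; adjusted p = 4.62e-08), the region where the glial, endothelial and choroid plexus markers above were also higher. In olfactory bulb 9 of the 19 were called lower than in the other regions and 0 higher, beside 15.9% and 13.8% of all genes. Against the reference 12 to 13 of 19 were called lower in each region, beside 31.2% to 33.2% of all genes. Of 20 genes of the Ras and MAP kinase cascade, 14 differed between regions (70%), with spreads of at most 0.87; Mapk3, which encodes ERK1, was below the reference in every region (-2.14 to -1.5). All 7 other target genes tested differed between regions, but in different orders: Etv1, of the same family as Etv4 and Etv5, was 2.64 in olfactory bulb, 1.60 in striatum, 1.70 in cortex and -0.59 in cerebellum, whereas the immediate early gene Fos was 1.62 in olfactory bulb and 3.43 in cerebellum. Of 4 sodium channel genes tested, the partners of the intracellular factors, Scn1a and Scn3a were below the reference in every region (-1.60 to -1.26 and -1.20 to -0.93).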

How the data were processed

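Sorted samples were measured on 16 arrays. The authors deposited scanner files with mean and background intensities of both channels and a log10 ratio per spot, extracted with Agilent Feature Extraction 8.1.1.1 per the submitters' processing notes; the deposited series table of log10 ratios equals the scanner ratio within 0.005. One label calls the Cy3 reference red; direction follows the dye names.

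Intensities were corrected with normexp (offset 50) and normalised within arrays by loess in limma 3.58.1 (R 4.3.3), with control and outlier spots at weight 0 and outlier spots left out. Genes well above background on at least 3 arrays in the sorted or 8 in the reference channel were kept. Group means were fitted for 27841 genes, with Benjamini-Hochberg adjustment over all genes at 0.05. The members and lists were chosen with earlier results of these data known. Per-array values are given for members whose region means spread by at least 1 or that lie at least 1 from the reference, in 1 direction, in every region and for others chosen after their values were seen. Further members are given by ranges and examples. In simulated arrays with 200 of 27841 genes changed in olfactory bulb, the test recovered 67.5% at a log2 change of 0.5 and 98.5% at 1. The simulation drew independent noise and changed far fewer genes than the 29.7% called for olfactory bulb in the data. Its shares therefore do not give the sensitivity of the tests reported here. The number of arrays limits precision. Replicates are biological per the labels. Of 67 member probes, 53 had the same name in RefSeq and 14 had no accession in the table. Figures were drawn with matplotlib. Alternatives were other offsets, centring, scaling, filters and probe choices, the deposited ratios, single channels, the regional arrays alone and leaving out each array; single other probes of Dusp4, Fgfr2, Etv5, Fgf12 and Fgf13 were added after seeing the data.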

Additional observations from a re-analysis of the deposited data

Results flagged for a closer look

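In whole brain, the group with 4 arrays, 3 of 34 members tested had 1 array far from the other 3 relative to their spread. The nominal rate of such flags is about 1 in 20 groups. The share of all genes flagged was not computed, so the count is not read as an excess. A small gap can be flagged where the other arrays lie close together, as for Spred1. Fgf11 was -0.17 on replicate 4 against a median of 0.20 on the others, Spry4 was -0.39 on replicate 4 against -0.091, and Spred1 was -0.53 on replicate 3 against -0.62.

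In other cases every array of 1 region lay above the reference and every array of another below it, with a difference called by limma. The share of such cases over all genes was not computed, so they are not read as particular to the members. By its brightest probe, Fgf12 was above the reference in olfactory bulb and below it in the other regions, by 0.61 against cortex (adjusted p = 6.79e-05), 0.92 against striatum (1.74e-07) and 0.90 against cerebellum (9.04e-08). Fgf18 was above it in cerebellum, and the differences were -0.90 for olfactory bulb (adjusted p = 0.000408), -0.996 for cortex (0.000113) and -0.71 for striatum (0.00125) minus cerebellum. Spry2 was above it in striatum, with -0.74 for olfactory bulb (adjusted p = 3.71e-05) and -0.51 for cortex (0.00248) minus striatum. Fgfr2 was below it in cerebellum, with 2.62 for olfactory bulb (adjusted p = 7.09e-14) and 1.36 for striatum (8.37e-10) minus cerebellum. Olfactory bulb minus cerebellum was -0.46 for Fgf1 (adjusted p = 0.0037), -0.56 for Fgf15 (0.00177) and -0.47 for Fgfr4 (0.00169). All these sides are those of the brightest probe. The second Fgf1 probe read 0.24 in olfactory bulb and -0.079 in cerebellum, the reverse. The second Fgfr4 probe read 0.23 and 0.40 there, and the second Spry2 probe 0.37 to 0.95 over the regions, all above the reference. For Fgfr2 the second probe read -0.046 in striatum and the third 0.088 in cerebellum. A side of the reference includes any dye effect of the probe.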

How the results depend on the processing

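Of 215 called differences of at least 0.3 followed, 141 kept direction and call under every alternative listed in the methods other than single probes and 183 with each array left out. Of the counts of members called, that for cortex against the other regions (3) became 5 with scaling between arrays, 9 in the sorted-cell channel only and 5 with the 12 regional arrays alone, and ran from 1 to 5 with each array left out; that for olfactory bulb (15) ran from 9 to 16. Correlations of the arrays' deviations from their group means do not settle whether replicate numbers pair the arrays. They ran from -0.11 to 0.23 for same-number pairs and from -0.23 to 0.24 for others. Of 18 same-number pairs 4 correlated over 0.1, and 7 of 12 arrays correlated best with their own number. With the replicate number as a block the cortical count was 5, and no followed difference between regions lost its call. Some values changed sign, and the cause was not tested. Median centring gave -0.0050 for Fgf10, 0.15 for Fgf12, 0.098 for Fgfr2 and 0.20 for Fgfr3 in whole brain against the reference, and 0.057 for Fgf8 in striatum minus cerebellum, which was 0.27 in the sorted-cell channel only. Scaling between arrays gave 0.012 for Fgf13 in whole brain minus the regions. The mean of all probes gave 0.062 for Fgfr1 and 0.49 for Fgfr2 in whole brain and 0.0017 for Spred1 in olfactory bulb against the reference, 0.49 for Fgfr1 and 0.32 for Fgfr2 in whole brain minus the regions, and 0.034 for Fgf1 in cortex minus cerebellum. The probe brightest in the sorted-cell channel gave 0.19 for Spred2 in cortex against the reference, 0.36 for Spred2 in cortex minus striatum and 0.29 for Fgf14 in whole brain minus the regions. Other probes on their own, added after seeing the data, gave for Etv5 0.064 in cortex and -0.13 in cerebellum against the other regions; for Fgf12 0.89 in whole brain, 0.76 in cortex, 0.38 in striatum and 0.53 in cerebellum against the reference; for Fgf13 -0.037 in olfactory bulb against the other regions; and for Fgfr2 1.73 and 0.19 in whole brain and 0.088 in cerebellum against the reference, and 1.57 in whole brain minus the regions. In the authors' deposited log ratios the median of all genes in whole brain against the reference was 0.25, a shift of 0.16. Spry4 and Fgf5 were limited by signal near background.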
